A study of Mus musculus with 16 samples.

Results

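The genes described here are Zmiz1, Zmiz2, Pias1, Pias2, Pias3 and Pias4, the 6 mouse genes for transcriptional co-regulators that carry a SUMO-ligase type zinc finger, in ATAC-seq peak lists of prostate organoids. Their open-chromatin regions were found by merging the peaks of all 16 lists wherever they overlapped by at least 1 bp and keeping each merged region whose nearest protein-coding gene body (mm10), within 100 kb, was one of the 6. This gave 58 of 86616 merged regions, 44 at Zmiz1, 5 at Zmiz2, 3 at Pias1, 2 at Pias2, 1 at Pias3 and 3 at Pias4. Of these, 55 were called in at least 2 libraries and entered the tests, out of 80352 such regions in all, and the other 3, all at Zmiz1, were called in 1 library each. The family was chosen by the called-region count of Zmiz1, which was lower in SPOPmut than in Control. Every genotype value of Zmiz1 is therefore a description without a test.

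ATAC-seq maps accessible DNA with a transposase that inserts adapters where chromatin is open. The organoids, cultures that keep prostate epithelial cell types, fell into 4 groups of 4 libraries: SPOPmut with DHT, SPOPmut with EtOH, Control with DHT and Control with EtOH. SPOPmut organoids carry mutant SPOP, the substrate adaptor of a cullin ubiquitin ligase that is recurrently mutated in prostate cancer; which mutation, and under which promoter, the labels do not say. All 16 libraries also carry the label sgNT, whose meaning the labels do not give. DHT (dihydrotestosterone, a potent androgen) was used at 10 nM, and its groups were set against the solvent ethanol, both for 24 h in medium lacking mEGF. The age and number of the animals and the number of organoid lines per genotype are not given in the sources used here, so the p-values speak only to variation among the libraries at hand, which may be technical.

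ZMIZ and PIAS proteins share a zinc finger of the MIZ or SP-RING type. PIAS proteins were named as inhibitors of activated STAT factors and act as SUMO ligases, which help to attach the small protein SUMO to transcription factors and chromatin proteins. ZMIZ1 and ZMIZ2 raise androgen-dependent transcription in reporter assays in human cells, and PIAS proteins act as co-activators or co-repressors of hormone-dependent transcription.

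The promoters are shown for the members in the RefSeq promoter table (GRCm38.p6, the assembly of mm10), because the regions over these starts were called in all 16 libraries. Each sequence is the 250 bases before the annotated start, on the strand of the gene, and Pias3 is shown for 1 of its 2 table entries.
Zmiz1, chr14:25458935-25459184, plus strand: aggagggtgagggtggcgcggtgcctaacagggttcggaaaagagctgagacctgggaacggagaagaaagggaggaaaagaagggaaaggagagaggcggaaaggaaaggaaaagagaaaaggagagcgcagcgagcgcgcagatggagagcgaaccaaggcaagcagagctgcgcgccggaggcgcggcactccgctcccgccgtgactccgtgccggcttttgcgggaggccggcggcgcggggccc
Pias1, chr9:62980880-62981129, minus strand: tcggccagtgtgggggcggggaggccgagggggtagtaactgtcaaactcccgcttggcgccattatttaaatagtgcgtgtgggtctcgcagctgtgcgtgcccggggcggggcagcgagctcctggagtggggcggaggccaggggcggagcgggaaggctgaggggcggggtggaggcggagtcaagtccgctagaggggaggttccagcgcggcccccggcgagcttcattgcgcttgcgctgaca
Pias3, chr3:96696125-96696374, plus strand: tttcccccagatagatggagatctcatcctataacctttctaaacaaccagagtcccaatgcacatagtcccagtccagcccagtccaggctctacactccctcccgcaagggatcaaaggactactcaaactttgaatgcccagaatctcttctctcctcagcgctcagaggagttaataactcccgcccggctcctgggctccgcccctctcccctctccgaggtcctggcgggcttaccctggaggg
The Zmiz1 and Pias1 sequences were 64.8% and 68.8% G or C with 25 and 23 CpG pairs, and that of Pias3 was 56.0% with 7, beside medians of 52.4% and 6 over 32851 promoters of the same length. Both strands were searched for 6 motifs, and none was present in the 3 sequences, so no base is in capitals. The androgen response element, AGAACA and TGTTCT with 3 bases between them, occurred in 0.00913% of all promoters, and AGAACA alone, which the element contains, in 16.1%. The forkhead motif TGTTTAC occurred in 3.17%, the AP-1 motif TGANTCA in 6.75%, the Sox motif ACAAAG in 16.5% and the Gata motif AGATAA in 9.99%.

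Zmiz1 (gene 328365) lies on chromosome 14, 25457875 to 25666743, and Zmiz2 (gene 52915) on chromosome 11, 6388799 to 6406162. Pias1 (gene 56469) lies on chromosome 9, 62878366 to 62980879, and Pias2 (gene 17344) on chromosome 18, 77065176 to 77155710. Pias3 (gene 229615) lies on chromosome 3, 96696361 to 96706070, and Pias4 (gene 59004) on chromosome 10, 81153961 to 81167720. All positions are on mm10, and regions could be placed in or outside a gene body but not in exons or introns. Regions whose midpoint lay in the gene body were densest at Zmiz1, at 12.9 per 100 kb of gene, then at Zmiz2 (11.5), Pias3 (10.3) and Pias4 (7.27), and sparsest at Pias2 (2.21) and Pias1 (0.975). These densities rest on 27 tested regions at Zmiz1, 2 each at Zmiz2 and Pias2, and 1 each at Pias1, Pias3 and Pias4. A single region more or less could therefore change the order. Of the 55 tested regions 33 (60.0%) were called in all 16 libraries, beside 48.9% of all tested regions.

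The 16 lists held 57245 to 69644 peaks each, and within groups any 2 libraries shared 0.830 to 0.907 of the regions called in either. The lists hold no read counts, so the depth behind a call is unknown. All 6 basal markers had a call within 1 kb of the gene body in every library, as did 8 of 10 luminal markers. No library had a call at Cd3e or Adgre1 (immune), Chga or Insm1 (neuroendocrine), Col1a2 or Col3a1 (stromal), or Cdh5 or Kdr (endothelial).

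Zmiz1 had 41 tested regions, and fewer of them were called in SPOPmut than in Control with either treatment. The counts were 27, 24, 29 and 29 in SPOPmut with DHT and 26, 27, 28 and 25 in SPOPmut with EtOH, against 37, 36, 37 and 36 in Control with DHT and 35, 34, 36 and 35 in Control with EtOH. No SPOPmut library reached the lowest Control library. The means were 27.2 ± 2.36 and 26.5 ± 1.29 in SPOPmut with DHT and EtOH, against 36.5 ± 0.577 and 35.0 ± 0.816 in Control (SD, n = 4 each). Averaged over treatments SPOPmut minus Control was -8.88 called regions, rank 9 among the falls of 11212 genes by number of regions. A gene with more regions can lose more, and Zmiz1 ranked 30 among these genes by its number of tested regions. Since this contrast led to the choice, nothing is read from the background of 12.1% of genes that had fewer called regions at an adjusted p under 0.05. The bases of Zmiz1 inside peaks averaged 26729 and 27202 in SPOPmut with DHT and EtOH, against 37229 and 37631 in Control with DHT and EtOH.

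**Figure D1:**
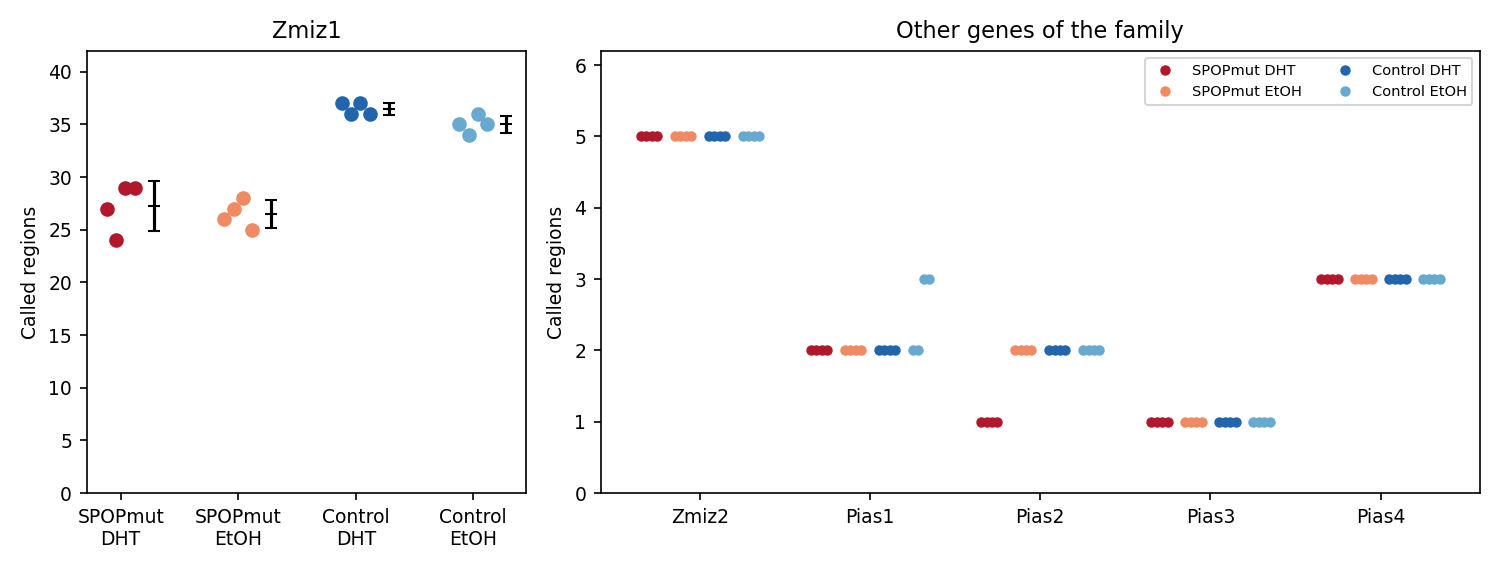
Called regions per library (y axis, number) at Zmiz1 (left) and at the other 5 genes (right), in SPOPmut DHT, SPOPmut EtOH, Control DHT and Control EtOH. Points are libraries, and black bars on the left are the mean and SD of 4. Zmiz1 has 24 to 29 called regions in SPOPmut and 34 to 37 in Control, while Zmiz2, Pias3 and Pias4 have the same number in every library.

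Zmiz1 was not alone on its chromosome. Chromosome 14 took 2.81% to 2.92% of the called regions of SPOPmut libraries, against 3.36% to 3.47% in Control libraries. Of 359 tested genes there, 60.4% had fewer called regions in SPOPmut by any amount, beside 34.8% of all genes, and 24.8% passed as lower, beside the 12.1% above. With the call rate of the chromosome in each group, Zmiz1 would have had 27.2 and 27.0 called regions in SPOPmut with DHT and EtOH, against 30.3 and 31.6 in Control with DHT and EtOH. After subtracting that expectation in each library, SPOPmut minus Control at Zmiz1 was -5.01. Counting only regions within 25 kb made it -4.38, and counting all regions over the body and 10 kb either side -4.00. DNA copy number was not analysed here. Within 1 kb of their gene bodies, the 5 endothelial markers summed to 14 to 17 and 15 to 20 called regions in SPOPmut with DHT and EtOH, against 21 to 23 and 21 to 22 in Control with DHT and EtOH, with Cdh5 and Kdr at 0 in that window in every library, and the 10 luminal markers to 34 to 35 and 32 to 34 in SPOPmut, against 29 to 30 and 28 to 33 in Control. In the same window the 6 basal markers summed to 29 to 30 and 26 to 28 in SPOPmut, against 30 to 34 and 26 to 29 in Control. The 8 stromal markers summed to 5 to 9 and 9 to 10 in SPOPmut, against 7 to 9 and 7 to 10 in Control. The 5 immune markers summed to 2 and 2 in SPOPmut, against 1 and 1 in Control. The 4 neuroendocrine markers summed to 2 and 1 to 2, against 2 and 2. The part of the markers in the Zmiz1 difference was not tested.

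The regions of Zmiz1 differed in how constant they were. Called in all 16 libraries were 21, of which 14 lay inside the gene body, 6 on the low-coordinate side and 1 on the high-coordinate side. They had a median width of 1336 bp, and their peaks had a median within-list percentile of 66.9, where the percentile ranks a peak by its -log10 p among all peaks of its own list. Another 11 were called only in Control libraries, with a median width of 513 bp and a median percentile of 17.4. Of these 11 regions 8 entered the tests, and the other 3 were called in 1 library each, which places them in 1 genotype by construction. One was called only in SPOPmut, and 2 were called in DHT libraries of both genotypes and in no EtOH library. The remaining 9 had other patterns. Among the 20 tested regions that were not called everywhere, 17 were called in more Control than SPOPmut libraries, 1 in more SPOPmut than Control libraries, and 2 in equal numbers. These genotype patterns belong to the contrast behind the choice and have no share over all regions beside them, so nothing is read from them.

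**Figure D2:**
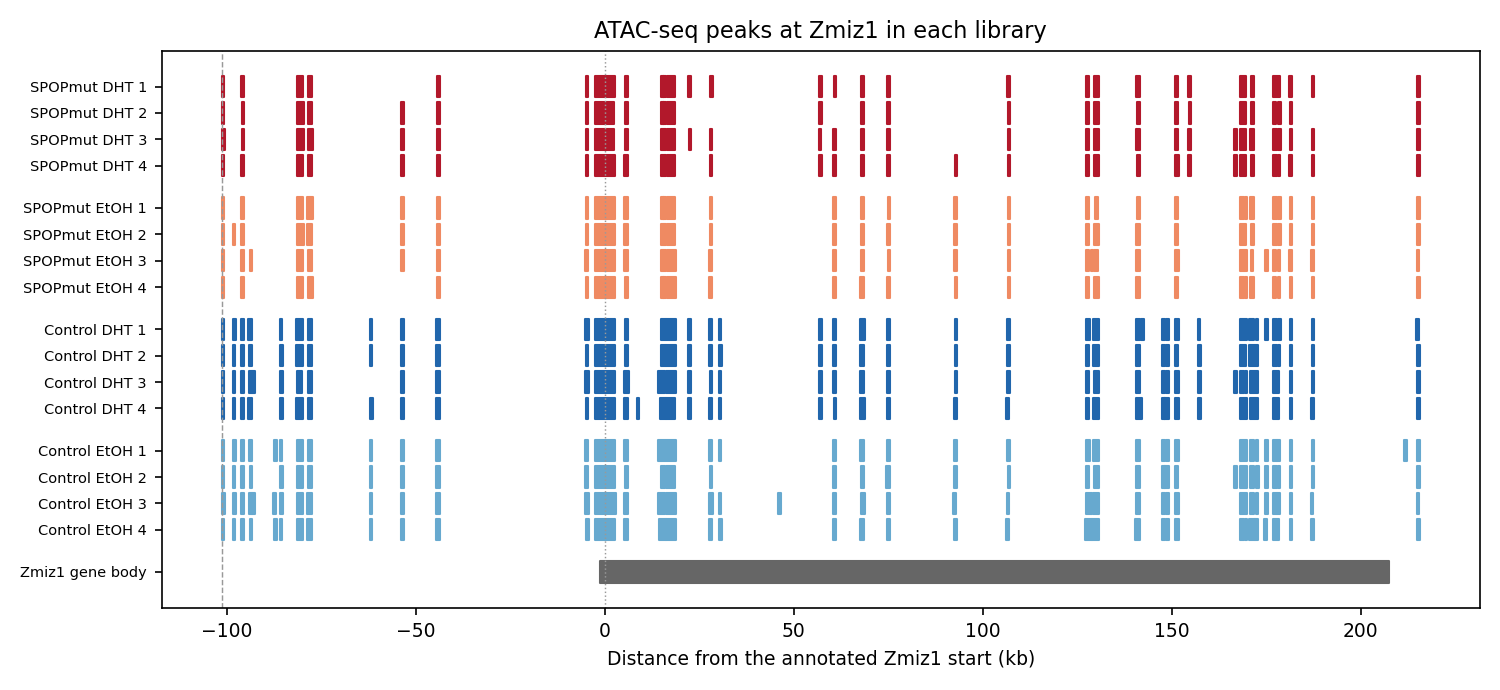
Peaks in the regions of Zmiz1, by distance from its annotated start (x axis, kb, dotted line at 0), with 1 row per library and groups from SPOPmut DHT at the top to Control EtOH at the bottom. Bars are peaks, drawn at least 0.7 kb wide, the grey bar is the gene body and the dashed line is the 100 kb limit. Peaks at the start stand in all 16 rows, peaks near -86 kb stand only in Control rows, and peaks at 57.0 kb stand only in DHT rows.

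The region over the Zmiz1 start (chromosome 14, 25456498 to 25462111, 5614 bp) was called in all 16 libraries. Its percentiles were 82.3, 79.1, 84.9 and 82.5 in SPOPmut with DHT and 85.5, 82.5, 82.6 and 77.6 in SPOPmut with EtOH, against 90.6, 87.9, 88.9 and 89.3 in Control with DHT and 90.6, 89.1, 90.2 and 91.5 in Control with EtOH. The promoter was open in every library, and ranked lower in its list in all 8 SPOPmut libraries. At the edge of the 100 kb limit, the outermost region kept lay 99.7 kb from the body and was called in all 16 libraries. The nearest one left out, at 103 kb (25354464 to 25355367), was called in no SPOPmut library, in 4 Control libraries with DHT and in 3 with EtOH. The next one out, at 112 kb (25345256 to 25345728), was called in all 8 DHT libraries and no EtOH library.

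In the comparison of SPOPmut with Control under EtOH, 4 of the 55 regions were called in all 4 Control libraries and in none of the 4 SPOPmut libraries, beside 4.36% of all tested regions, and 0 were called the other way, beside 4.84%. Under DHT, 8 were called in all Control and no SPOPmut libraries, beside 4.22%, and 1 the other way, beside 6.41%. All but 1 of these 13 region calls were at Zmiz1, and since they belong to the contrast behind the choice nothing is read from them. The strongest region missing from SPOPmut with both treatments lay 84.5 kb before the Zmiz1 body (25373157 to 25373685), with percentiles of 53.3, 55.8, 52.1 and 56.3 in Control with DHT and 61.9, 45.9, 65.7 and 56.5 in Control with EtOH. A region 96.8 kb before the body (25360693 to 25361490) was called in 1 SPOPmut library, with EtOH, at percentile 12.1, and in all 8 Control libraries at 58.3 to 69.1. Adjacent regions inside the gene (25606582 to 25607644 and 25607744 to 25608563) were called in no SPOPmut library and in all 8 Control libraries, at percentiles of 24.7 to 41.2 for the first and 13.8 to 32.6 for the second. A region 30.4 kb after the start (25489292 to 25489785) was called in no SPOPmut library, in all 4 Control libraries with DHT at 32.9 to 40.5, and in 3 with EtOH at 5.8 to 20.4.

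Among the 14 tested regions of the other 5 genes, none passed for genotype in the exact stratified region test (adjusted over all 80352 regions), and 1 had an unadjusted p under 0.05. Of all tested regions, 3.76% passed as gained and 3.23% as lost in SPOPmut. The 1 region was inside Pias2 (77119548 to 77119999; exact stratified p = 0.0286, adjusted p = 0.169). By gene, none of the 4 other members with at least 2 regions passed for genotype, and Pias2 alone had an unadjusted p under 0.05. Over all genes, 19.4% passed as having more and 12.1% as having fewer called regions in SPOPmut.

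Zmiz2, which encodes the second ZMIZ protein, had 5 called regions in every library. Pias4, which encodes a SUMO ligase, had 3 in every library, and Pias3, named for its inhibition of STAT3, had 1, over its start. Pias1, a SUMO ligase gene, had 2 in every library but 2 of Control with EtOH, where a weak region 54.7 kb upstream of its start (63035482 to 63035708) was also called, at percentiles of 7.0 and 15.5. For Pias1 SPOPmut minus Control was -0.25 called regions (exact permutation p = 0.429, adjusted p = 0.655). With the call rate of chromosome 9 subtracted it was -0.44 and passed (exact permutation, adjusted p = 0.00692). That value also carries the genotype difference in the chromosome 9 call rate, so the pass is not read as a change at Pias1. All regions over the Zmiz2 body and 10 kb either side were also counted, whatever gene they were assigned to. SPOPmut minus Control in that window passed (-0.88, exact permutation, adjusted p = 0.0121). The 5 regions assigned to Zmiz2 were called in all 16 libraries, so the fall came from regions assigned to other genes.

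Pias2 was the one other member whose count followed the groups. It had 1 called region in each of the 4 SPOPmut libraries with DHT, and 2 in each library of SPOPmut with EtOH, Control with DHT and Control with EtOH. SPOPmut minus Control was -0.50 (exact permutation p = 0.0286, adjusted p = 0.0782), and DHT minus EtOH was also -0.50 (p = 0.0286, adjusted p = 0.144). Scaled to list length the genotype difference passed (-0.56, exact permutation, adjusted p = 0.0282), as it did with the call rate of chromosome 18 subtracted (-0.52, adjusted p = 0.0309). Both values also carry the genotype difference in list length or call rate. The same scaling to list length gave -0.17 at Zmiz2, whose count was the same in every library. The 2 passes are therefore not read as a genotype change at Pias2. The region behind it lay inside the gene (77119548 to 77119999, 452 bp). Its percentiles were 23.0, 9.0, 25.2 and 4.6 in SPOPmut with EtOH, 17.8, 29.5, 21.0 and 33.5 in Control with DHT, and 34.2, 20.5, 31.2 and 40.3 in Control with EtOH. The region thus ranked at percentile 40.3 or lower wherever it was called, and its lowest percentiles, 4.6 and 9.0, were in SPOPmut with EtOH. The DHT effect on the Pias2 count was -1 in SPOPmut and 0 in Control, and their difference of -1 had a permutation p of 0.0286 and an adjusted p of 0.511.

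The second question was how DHT altered these genes. No member passed for DHT by the exact permutation test on called regions, and Pias2 alone had an unadjusted p under 0.05, while 5.41% of all genes passed as having more called regions with DHT and 3.14% as having fewer. At Zmiz1 DHT minus EtOH was 1.12 called regions (exact permutation p = 0.181, adjusted p = 0.498). Within SPOPmut it was 0.75 (exact permutation p = 0.714) and within Control 1.5 (exact permutation p = 0.0857), where 0.0286 is the smallest p that 4 against 4 libraries allow. The difference of these effects was -0.75 (permutation p = 0.744, adjusted p = 1), and without the second SPOPmut DHT library, which had the lowest count, it was 0.33. No gene in the table passed for this difference (0%) by the permutation test, and 799 of 11212 had an unadjusted p under 0.05.

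Of the 55 member regions 1 passed as gained with DHT and 0 as lost in the exact stratified region test, and 4 and 1 had an unadjusted p under 0.05. Of all tested regions, 1.51% passed as gained and 0.259% as lost, so the member count was near the background. The 1 that passed lay inside Zmiz1, 57.0 kb after the start (25515837 to 25516468, 632 bp; exact stratified p = 0.000408, adjusted p = 0.0231). Its percentiles were 43.7, 32.2, 51.9 and 51.0 in SPOPmut with DHT and 45.4, 35.9, 38.9 and 38.6 in Control with DHT, and it was called in no EtOH library. All 8 DHT libraries therefore carried a mid-ranked peak at this site in both genotypes. With treatments compared only within the same replicate number, where the smallest p is 0.00781, 0 member regions passed.

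In SPOPmut, 2 member regions were called in all DHT and no EtOH libraries, beside 4.70% of all tested regions, and 1 was lost in the same sense, beside 1.98%. In Control 3 were gained, beside 2.93%, and 0 lost, beside 1.96%. The SPOPmut DHT and Control DHT libraries also enter the genotype comparisons above. Besides the site at 57.0 kb, SPOPmut with DHT gained a region 155 kb after the Zmiz1 start (25613602 to 25613961), with percentiles of 8.2, 7.1, 8.2 and 5.0 and no call in any other library. Control with DHT gained a region at 157 kb (25616104 to 25616905), with percentiles of 21.0, 2.5, 14.5 and 20.3 and no call elsewhere. A region at 22.3 kb (25481245 to 25481652) was called at 23.9, 13.1, 32.9 and 16.9 in Control with DHT and in 2 SPOPmut libraries with DHT, at 3.9 and 8.2. None of these 3 passed over all regions (exact stratified test, adjusted p = 0.28, 0.28 and 0.161). The region lost in SPOPmut was the one inside Pias2. The gain at 155 kb lay low in its lists: with equal list lengths, or with the weakest 25% of each list left out, SPOPmut with DHT gained 1 region rather than 2 over EtOH and 0 rather than 1 over Control with DHT. With equal list lengths, or without the fourth SPOPmut DHT library, 2 regions rather than 1 were lost with DHT in SPOPmut. Without the first Control DHT or the second Control EtOH library, 1 rather than 0 was lost in Control.

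The strength of regions called in all 16 libraries gave a measure that the choice of members did not use for DHT. Strength is the within-list percentile of the strongest peak in a region, tested by exact permutation within genotype with adjustment over 39300 such regions. At Zmiz1, 20 of 21 regions were weaker with DHT by any amount, with a median of -3.86 percentile points, beside 59.8% of all such regions, 62.3% of those on chromosome 14 and a median of -0.83 over all. In SPOPmut 17 of 21 were weaker and in Control 19 of 21, 16 in both. By the test, 8 of the 21 were weaker, beside 23.3% of all regions, and 1 was stronger, beside 11.9%. With treatments compared only within the same replicate number, 5 were weaker and 1 stronger. The 12 constant regions of the other 5 genes included 1 that was weaker and 0 stronger, and 1 had an unadjusted p under 0.05. Measured by the percentile of signal, or without the third SPOPmut EtOH library, 1 of the 12 was stronger, and without the fourth SPOPmut EtOH library 2 were weaker.

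**Figure D3:**
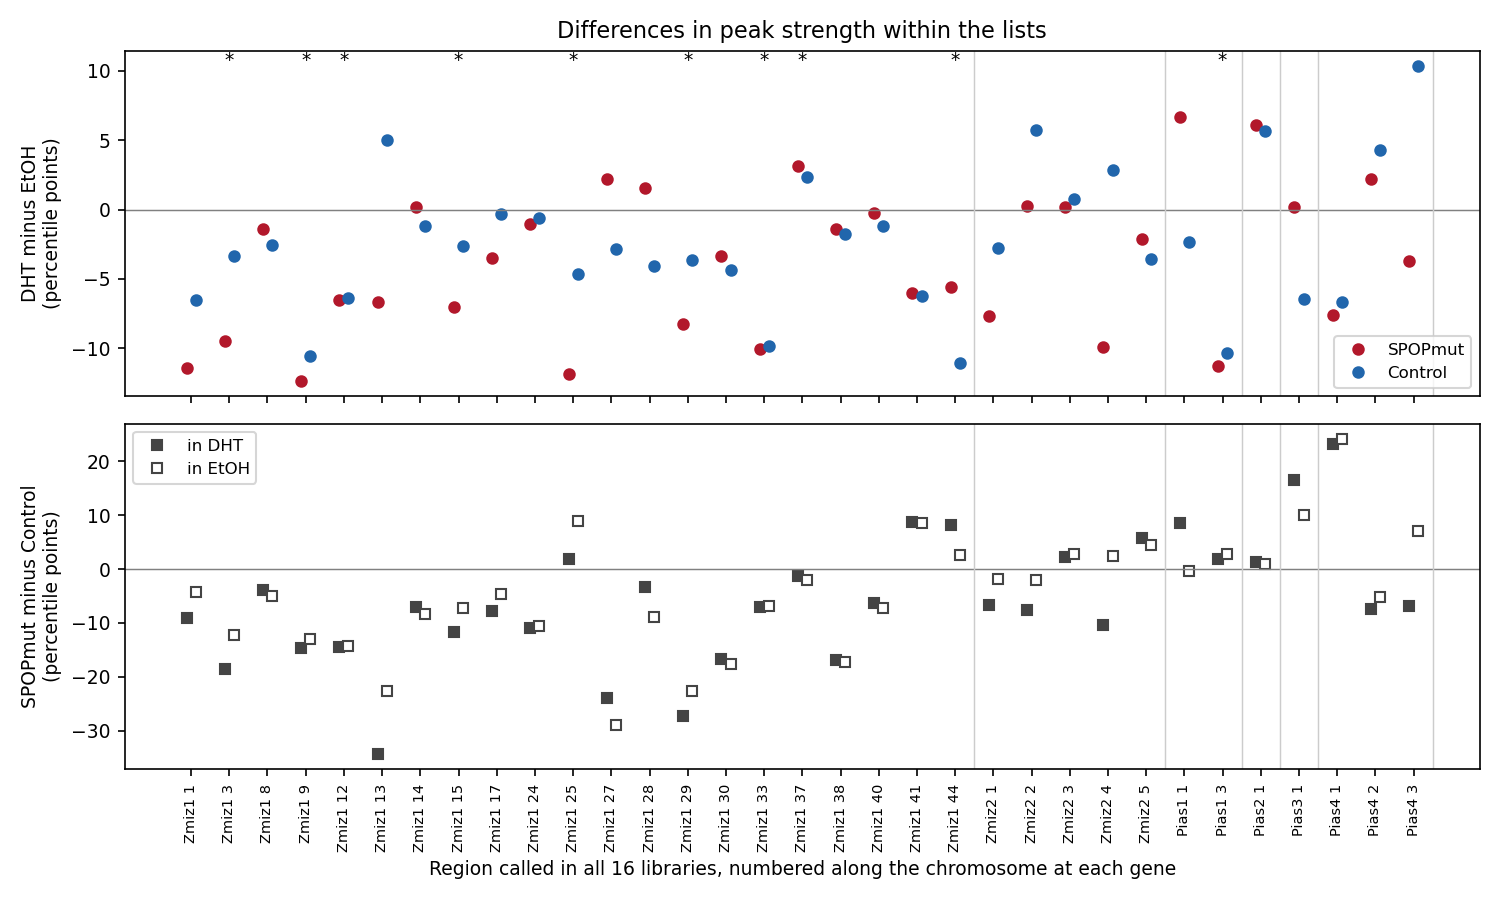
Differences in within-list percentile (y axes, percentile points) for the 33 regions called in all 16 libraries (x axis, numbered along each chromosome). The upper panel gives DHT minus EtOH in SPOPmut (red) and Control (blue), with an asterisk at an adjusted p under 0.05, and the lower panel SPOPmut minus Control in DHT (filled) and EtOH (open). Zmiz1 points lie mostly below 0 in both panels, and in the lower panel the first Pias4 region stands highest, at 23.6 averaged over treatments.

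The largest fall among the 8 was in the region 76.8 kb before the Zmiz1 body (25380385 to 25381720), by 11.4 percentile points (exact permutation, adjusted p = 0.0025). Its percentiles were 55.4, 45.1, 54.6 and 62.2 in SPOPmut with DHT against 64.1, 65.5, 68.7 and 68.3 in SPOPmut with EtOH, and 71.0, 63.9, 64.6 and 76.8 in Control with DHT against 76.9, 83.0, 80.7 and 77.9 in Control with EtOH. Neither genotype showed an overlap between the treatments. A region 151 kb after the start (25610024 to 25611277) fell by 9.95, with means of 47.3 ± 6.11 in SPOPmut with DHT and 57.4 ± 1.57 in SPOPmut with EtOH, and 54.3 ± 4.26 in Control with DHT and 64.2 ± 5.13 in Control with EtOH (SD, n = 4 each; exact permutation, adjusted p = 0.00564). One at 130 kb (25588218 to 25589984) fell by 5.97, with means of 61.8 ± 2.23 in SPOPmut with DHT and 70.1 ± 2.44 in SPOPmut with EtOH, and 89.1 ± 1.18 in Control with DHT and 92.8 ± 1.93 in Control with EtOH (SD, n = 4 each; exact permutation, adjusted p = 0.0025). The treatments did not overlap in either genotype there, and its SPOPmut percentiles were far below the Control ones. The other 5 differed by -8.29 to -4.84.

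One Zmiz1 region was stronger with DHT, 169 kb after the start (25627201 to 25629092), and it was among the highest-ranked peaks of the gene. Its percentiles were 95.7, 97.0, 97.4 and 96.6 in SPOPmut with DHT against 92.7, 93.7, 94.7 and 93.1 in SPOPmut with EtOH, and 97.1, 98.3, 98.2 and 97.9 in Control with DHT against 94.0, 95.9, 95.7 and 96.5 in Control with EtOH. DHT minus EtOH was 2.75 percentile points (exact permutation, adjusted p = 0.0025), with no overlap in either genotype. At the Zmiz1 start the treatments differed by -0.51 (exact permutation, adjusted p = 0.771).

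At Pias1, a constant region 57.1 kb upstream of the start (63037257 to 63038616) was weaker with DHT by 10.8 percentile points (exact permutation, adjusted p = 0.0025). Its percentiles were 60.5, 67.9, 66.4 and 65.8 in SPOPmut with DHT against 74.9, 75.8, 80.6 and 74.2 in SPOPmut with EtOH. They were 64.2, 59.2, 66.2 and 63.6 in Control with DHT against 75.1, 69.3, 74.3 and 75.8 in Control with EtOH. All 8 DHT libraries lay below all 8 EtOH libraries, whatever the genotype. The region over the Pias1 start ranked lower in the lists, at 27.3 to 56.4, and DHT minus EtOH there was 2.17 (exact permutation, adjusted p = 0.760).

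In the genotype comparison of strength, 3 of the 12 constant regions of Zmiz2 and the Pias genes were stronger in SPOPmut and 2 weaker, beside 34.1% and 28.4% of all such regions. The largest difference was at Pias4, in a region at the low-coordinate end of the gene (81154369 to 81155794), by 23.6 percentile points (exact permutation, adjusted p = 0.00125). Its percentiles were 45.3, 52.4, 53.2 and 46.2 in SPOPmut with DHT and 65.1, 54.0, 58.6 and 49.7 in SPOPmut with EtOH, against 36.2, 13.1, 30.5 and 24.7 in Control with DHT and 29.7, 25.4, 40.5 and 35.4 in Control with EtOH. Every SPOPmut library lay above every Control library. At the Pias3 start (96695999 to 96697912) SPOPmut minus Control was 13.3 (exact permutation, adjusted p = 0.00125), with 81.7, 84.3, 86.1 and 83.6 in SPOPmut with DHT and 86.1, 82.9, 85.5 and 80.4 in SPOPmut with EtOH, against 73.4, 65.1, 65.4 and 65.4 in Control with DHT and 74.0, 71.8, 69.4 and 79.7 in Control with EtOH. These groups did not overlap either. The third, at the high-coordinate end of Zmiz2 (6405484 to 6407222), averaged 79.1 in SPOPmut and 74.0 in Control, a difference of 5.13 (exact permutation, adjusted p = 0.00843).

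The 2 weaker regions were 7.7 kb before the low-coordinate end of Zmiz2 (6380675 to 6381445; -4.80, exact permutation, adjusted p = 0.0180) and at the high-coordinate end of Pias4 (81166987 to 81168601; -6.33, exact permutation, adjusted p = 0.0133). The first averaged 84.1 in SPOPmut and 88.9 in Control, and the second 67.9 in SPOPmut and 74.2 in Control. Chromosomes 11 and 10, which carry them, had medians of -1.94 and -2.50 over their constant regions, and after centring each library on the chromosome median 0 of the 12 regions passed as weaker. Chromosomes 3 and 9 had medians of 3.75 and 2.96. At Zmiz1, as a description, 18 of 21 constant regions were weaker in SPOPmut with a median of -7.66, beside a median of -7.19 and 80.8% weaker on chromosome 14 and 46.6% over all chromosomes.

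The surroundings of Zmiz1 were examined over 1 Mb on either side. In the 100 kb before the start, 5.75 ± 0.5 and 6.25 ± 0.957 regions were called in SPOPmut with DHT and EtOH, against 10.0 ± 0 and 11 ± 0.816 in Control (SD, n = 4 each). In the 100 kb after the start the values were 8.25 ± 1.5 and 8.0 ± 0 in SPOPmut with DHT and EtOH, against 11 ± 0 and 8.75 ± 0.50 in Control. In the next 100 kb they were 12.0 ± 1.41 and 11.2 ± 0.50 in SPOPmut, against 13.5 ± 0.577 and 14.2 ± 0.50 in Control. Of its neighbours, Polr3a, a subunit gene of RNA polymerase III, lies 971 kb before Zmiz1 and had fewer called regions in SPOPmut by -1.12 (exact permutation, adjusted p = 0.00325). Rps24, a ribosomal protein gene 961 kb before it, differed by 0.50 (exact permutation, adjusted p = 0.0782). After Zmiz1, Ppif, the gene of mitochondrial cyclophilin D, differed by 1.00 at 26.8 kb (exact permutation, adjusted p = 0.128). Zcchc24, a zinc finger gene at 44.9 kb, had fewer by -2.12 (exact permutation, adjusted p = 0.00325). The fewer called regions of SPOPmut were therefore shared by 1 of the 2 neighbours on each side. Near-identical gene copies lie between 222 kb and 591 kb beyond Zmiz1, where reads may have been split between copies.

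**Figure D4:**
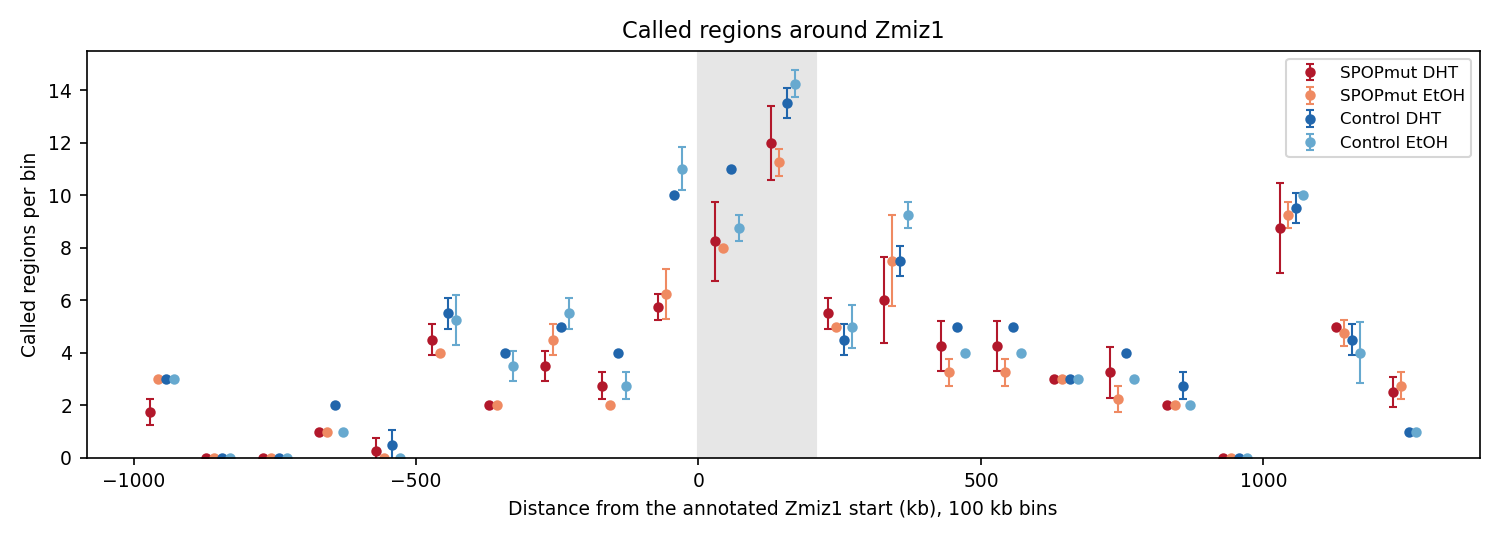
Called regions per 100 kb bin (y axis, mean and SD of 4 libraries) by distance from the Zmiz1 start (x axis, kb) in SPOPmut DHT, SPOPmut EtOH, Control DHT and Control EtOH, with the gene body in grey. In the bin just before the start SPOPmut has means of 5.75 and 6.25, and Control 10.0 and 11, while 200 to 300 kb after the start SPOPmut has 5.5 and 5.0, and Control 4.5 and 5.0.

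The genes whose called-region counts were most like those of Zmiz1 over the 16 libraries, among 1936 genes with at least 10 tested regions and more than 1 Mb away, were Egln3 (Pearson r = 0.985), Ldlrad4 (0.981), Gm4606 (0.967), Irs2 (0.965) and Rerg (0.963). These values describe counts that share libraries, list lengths and the genotype difference used to choose Zmiz1. Egln3, a HIF prolyl hydroxylase gene on chromosome 12, averaged 15 and 14.5 in SPOPmut with DHT and EtOH, against 22.2 and 21.8 in Control. Irs2, an insulin receptor substrate gene, averaged 9.25 and 9.75 in SPOPmut, against 15 and 14.2 in Control. Gm4606 lies on chromosome 14 like Zmiz1.

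Other genes of the SUMO pathway and reported partners of ZMIZ or PIAS proteins were read against the same test. Of 23 SUMO-pathway genes, 13 had at least 2 regions, with 4 having more called regions in SPOPmut and 1 fewer, beside 19.4% and 12.1% of all genes, and a median difference of 0.62 against 0 over all genes. Nsmce2, a SUMO ligase of the SMC complex, averaged 30.2 and 30.5 in SPOPmut with DHT and EtOH against 25.8 and 25.5 in Control (4.75, exact permutation, adjusted p = 0.00325). Desi2 (2.38), Senp6 (2.00) and Senp5 (0.75) also had more, the Senp genes encoding proteases that remove SUMO, and the SUMO protease gene Uspl1 had fewer (-1.12). Nsmce2 lies on chromosome 15, Desi2 on 1, Senp6 on 9, Senp5 on 16 and Uspl1 on 5. Their chromosome call rates were not subtracted, and the part of the chromosomes in these differences was not tested. For DHT none of the 13 passed by exact permutation and 1 had an unadjusted p under 0.05, with a median of -0.12.

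Of 14 partner genes 11 were tested, with 3 having more called regions in SPOPmut and 2 fewer, beside 19.4% and 12.1% of all genes. Smad3, a TGF-beta signal transducer, averaged 30.8 and 30.8 in SPOPmut with DHT and EtOH, against 23.8 and 25.2 in Control (6.25, exact permutation, adjusted p = 0.00325). Smarca4, the BRG1 chromatin-remodelling ATPase, and Ep300, the p300 acetyltransferase, each had 2.12 more. Rbpj, the DNA-binding factor of Notch signalling, had fewer by -2.38 and Stat3 by -1.50. Smad3 and Smarca4 lie on chromosome 9, Ep300 on 15, Rbpj on 5 and Stat3 on 11. Chromosome call rates were not subtracted here either, and their part in these differences was not tested. For DHT, 1 of the 11 passed, as having fewer, beside 3.14% of all genes with fewer and 5.41% with more. Smarca4 averaged 4.0 ± 0 with DHT and 5.0 ± 0 with EtOH in SPOPmut, and 2.0 ± 0 with DHT and 2.75 ± 0.50 with EtOH in Control (SD, n = 4 each; DHT minus EtOH -0.88, exact permutation, adjusted p = 0.0288).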

How the data were processed

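Peak lists of 16 ATAC-seq libraries of mouse prostate organoids were used, 1 list per library. The submitters' processing notes name mm10 as the build and Bowtie2 2.3.4.1, SAMtools 1.8 and Genrich (no version) as the tools. The -log10 p at each summit was deposited as the authors' caller gave it and depends on library depth, so it was used only as a rank within its own list. A signal value per peak (Genrich's area statistic), deposited by the authors, served to rank peaks in 2 alternatives. The score, a whole number up to 1000, was deposited but not used. Read depth is unknown, so no counting intervals are given. Pooled signal tracks were not used here.

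Overlapping peaks were merged, regions called in 1 library were set aside for tests, and each region was assigned to the nearest protein-coding gene body within 100 kb from a RefSeq gene table of the same build. Genes with at least 2 tested regions (11212) were tested by exact permutation within the other factor (4900 arrangements, smallest p 0.000408), regions by an exact stratified test, both two-sided, with Benjamini-Hochberg adjustment over the whole table and a threshold of 0.05. The difference of DHT effects was tested by permuting treatment within genotype, which is exact only where DHT has no effect in either genotype. It was also tested after subtracting the mean DHT effect. Named were all 6 members, the gene-end regions, up to 3 separated regions per gene and direction, the 2 neighbours of Zmiz1 on each side, the 5 genes most like it, and genes of the 2 lists that passed, at most 4 per direction; the 100 kb bins inside Zmiz1 were added after their values were seen. Some items the rule or lists take are not reported here. Members, gene lists, tests and alternatives were chosen with earlier results of these data known. Promoter sequences came from the RefSeq table of GRCm38.p6 and matched 3 of 6 members. Scripts were tested on simulated data. Python 3.11.15, NumPy 2.4.6, pandas 2.3.3, SciPy 1.17.1 and Matplotlib 3.10.9 were used.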

Additional observations from a re-analysis of the deposited data

Results flagged for a closer look

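Of 108 sets of 4 libraries examined for 1 value apart from the other 3, 6 held one, and chance gives about 1 in 20. The bases of Zmiz1 in peaks were 28376 in the third SPOPmut EtOH library, against 26754 to 26878 in the other 3. The bases of Pias3 in peaks were 1738 in the fourth Control EtOH library, against 1629 to 1638. The Zmiz1 region 94.6 kb before the gene body had a percentile of 65.2 in the fourth SPOPmut EtOH library, against 71.9 to 73.3. The region at the high-coordinate end of Zmiz2 had 80.3 in the first SPOPmut DHT library, against 77.2 to 77.5. The region over the Pias3 start had 73.4 in the first Control DHT library, against 65.1 to 65.4. The region at the high-coordinate end of Pias4 had 72.7 in the fourth SPOPmut DHT library, against 67.3 to 68.0.

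The DHT effect on called regions at Pias2 was -1 in SPOPmut and 0 in Control, in all 4 libraries against all 4. Its difference of -1 did not pass the direct permutation test (adjusted p = 0.511). It passed after the mean DHT effect was subtracted (permutation, adjusted p = 0.0089), a version in which 573 genes passed and whose p is only approximate, the subtracted mean being itself an estimate.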

How the results depend on the processing

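Of the recomputed values 629 kept their direction and side of the threshold, or for counts and untested values their size, 19 moved, 4 gained a call and 3 turned direction. Zmiz1 SPOPmut minus Control ranged from -10.88 (peaks covering at least 50% of a region) to -4.00 (body and 10 kb either side), with -4.375 within 25 kb and -5.007 after subtracting the chromosome call rate. Its DHT difference turned to -0.125 with the weakest 25% of each list left out and was 0.8333 to 1.667 when 1 library was left out. Its difference of DHT effects turned to 0.25 with 50% coverage, was -3.75 with equal list lengths, -2.266 after subtracting the chromosome rate, -1.953 as a share of the list and -1.75 with the weakest 25% left out, and was -1.333 to 0.3333 when 1 library was left out, 0.3333 without the second SPOPmut DHT library. For separated regions, equal list lengths gave 1 gained and 2 lost in SPOPmut with DHT and 0 gained over Control with DHT, and leaving out the weakest 25% 1 gained and 0 gained over Control. When 1 library was left out, 1 to 2 were lost in SPOPmut and 0 to 1 in Control. In strength, percentiles of signal gave 1 other member region stronger with DHT, centring on chromosomes (chosen after seeing the data) 0 weaker in SPOPmut, and leaving out 1 library 0 to 1 stronger and 1 to 2 weaker with DHT. Genotype calls appeared for the Zmiz2 window (-0.875, body and 10 kb, from regions assigned to other genes) and for Pias1 (-0.4375, chromosome rate, which is itself part of the value). They also appeared for Pias2 (-0.558, share of list, and -0.5216, chromosome rate, where list length and rate are likewise part of the values). The cause of these changes was not tested.

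Replicate numbers were not taken to pair the libraries, since not every same-numbered pair had deviations correlated above 0.1. Same-numbered pairs ranged from -0.278 to 0.182. Above 0.1 were 7 of 24 same-numbered pairs and 6 of 72 other pairs, and 7 of 16 libraries matched their own number best. These values do not exclude that some libraries were paired. With the replicate block 0 regions passed for DHT, 5 Zmiz1 regions were weaker with DHT and 1 other member region weaker in SPOPmut; its smallest p is 0.00781, so fewer calls can pass. Pias1 had fewer than 2 regions within 25 kb or 10 kb of its body and was not tested there. Calls depend on the unknown depth of each library, and a region without a call may be open below the caller's threshold.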
